A study of Homo sapiens with 6 samples.

Results

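The genes described here are 10 carriers of amino acids in the solute carrier (SLC) families, taken by gene symbol from a table of 30676 genes: SLC7A5, SLC3A2, SLC1A5, SLC1A4, SLC38A1, SLC38A2, SLC7A1, SLC7A6, SLC6A9 and SLC43A1. All 10 symbols were found once each. Amino acids do not cross the plasma membrane unaided. Cells bring them in through sodium-driven uptake carriers, and obligate exchangers then trade one amino acid for another, so that glutamine taken up by one carrier can be exchanged for leucine by the next. In growing tumour cells these carriers feed protein synthesis and the nutrient sensor mTORC1, and several of their genes are known targets of the stress factor ATF4, of MYC or of hypoxia.

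The libraries are labelled as HCT116, an established human colorectal cancer line with a genotype label of WT. The first group was treated with GIA, named in the study's title as a genistein isoflavonoid alkaloid, at 10 µM for 24 hours, and the second received the vehicle DMSO (0.1%) for 24 hours, with 3 libraries each. Both groups were kept in 1% oxygen, so the response to low oxygen was not measured, and a DMSO content is labelled for the controls only. Nothing in the labels tells if a group's libraries were grown as separate cultures; p-values therefore cover the variation among these 6 libraries, possibly only technical. Totals were 64804849 to 67835059 estimated counts in the GIA libraries and 55725249 to 63542466 in the DMSO libraries.

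Markers of the labelled line were in part absent. EPCAM, the epithelial adhesion protein that colorectal lines usually carry, lay between 0.119 and 0.335 FPKM over the 6 libraries. FPKM is fragments per kilobase of transcript, scaled to library size. CDH1, which encodes E-cadherin, reached at most 0.0490 FPKM, the brush-border gene VIL1 at most 0.0122 and the stem cell marker LGR5 at most 0.0249. The keratins KRT8 (134.2 to 151.0 FPKM), KRT18 (219.0 to 273.5) and KRT19 (26.2 to 29.9) were present. The deposited data hold 7 of the listed fibroblast markers, and 5 passed the expression filter, with LUM, the matrix proteoglycan lumican, at 156.9 to 197.2 FPKM and DCN at 11.2 to 16.0. Of other markers, chosen after their values were seen, VIM had 146.9 to 160.3 FPKM and KRT7 211.5 to 255.6, and CDH17 at most 0.0149. The leukocyte list summed to 17.04 to 23.06 FPKM with GIA and 17.9 to 24.7 with DMSO, nearly all of it CD68, a lysosomal protein of macrophages that other cells also make (16.97 to 22.98 FPKM with GIA and 17.84 to 24.65 with DMSO), while PTPRC, the pan-leukocyte marker, was at most 0.0162. The endothelial list summed to at most 0.222. These values stand for the libraries labelled HCT116; the identity of the cells was not tested further.

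One library stood apart before any comparison. GIA library 2 lay farther from the median of the other 5 libraries than their whole range for 3428 of 13721 tested genes. The measure was log2 CPM, which divides counts by the library's TMM-scaled total. The share was 25% for GIA library 2, against 5.49% to 8.28% for each other library. In the summed fibroblast list it had the highest value, 222.4 FPKM, against 175.4 to 197.6 in the other 5 libraries, and KRT8 and KRT18, but not KRT19, were lowest in it. In bulk RNA, fewer cells of a type and less RNA per cell cannot be told apart. The results on the carriers and the list medians below are therefore also given without GIA library 2 where it matters. Fold changes of single genes of the other lists are given with all 6 libraries only.

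The 10 carriers spanned levels from among the most abundant mRNAs to modest ones, and all 10 passed the expression filter (a mean of at least 0.5 FPKM). SLC7A5, the light chain of the leucine exchanger LAT1, was the highest at a mean of 434.4 FPKM over 6 libraries, above 99.7% of tested genes. Next came SLC1A5 at 150.5, the neutral amino acid and glutamine exchanger ASCT2, and SLC3A2 at 134.8, the heavy chain that carries LAT1 to the membrane. The sodium-coupled glutamine carriers SLC38A2 and SLC38A1 had means of 69.7 and 63.5 FPKM. SLC7A1, which carries arginine and lysine, had 24.7, SLC7A6 14.5, the glycine carrier SLC6A9 13.9, SLC1A4 7.55 and SLC43A1 3.06. Together the 10 genes took 0.338% to 0.365% of all FPKM in the GIA libraries and 0.351% to 0.361% in the DMSO libraries. SLC7A5 alone made up 46.9% to 47.4% of their sum with GIA and 47.1% to 47.9% with DMSO.

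This order was the same in every library. Neighbours in the order did not overlap over the 6 libraries, except SLC7A6 and SLC6A9, whose ranges crossed, though SLC7A6 was the higher of them in 6 of 6 libraries. SLC1A5 and SLC3A2 came close, with a lowest SLC1A5 value of 137.3 FPKM and a highest SLC3A2 value of 136.7. So did SLC38A2 and SLC38A1, at 67.7 and 66.5 FPKM.

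**Figure D1:**
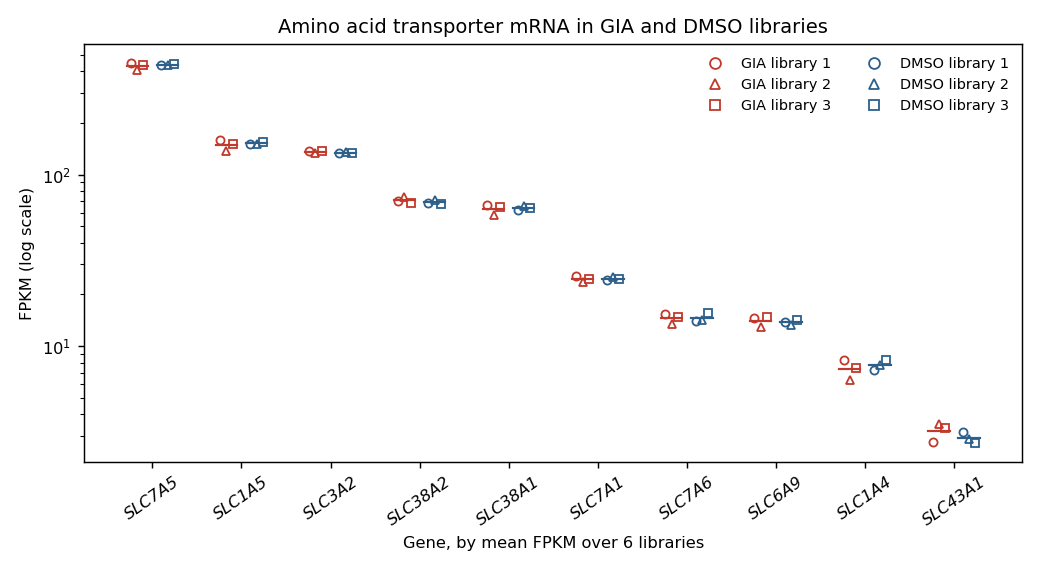
FPKM of the 10 amino acid carriers on a log axis, ordered by mean level; each symbol is 1 library (GIA in red, DMSO in blue) and the short line is the mean of 3 libraries. The levels run from 434.4 FPKM for SLC7A5 to 3.06 for SLC43A1, and the GIA and DMSO symbols of each gene overlap.

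No carrier passed the test between GIA and DMSO. Of 10 carriers tested with edgeR's quasi-likelihood test over all 13721 genes, 0 were higher and 0 lower at an adjusted p under 0.05, against 0% of all tested genes, and the smallest adjusted p of a carrier was 0.878. At an unadjusted p under 0.05 there were 0 of 10 carriers, against 4.59% of all genes. DESeq2 and limma also called 0 of the 10; over all genes they called 0, with 651 and 670 at an unadjusted p under 0.05, and edgeR had 630. The FPKM of the groups overlapped for all 10, where 11.2% of all tested genes had groups that did not overlap. The fold change was positive for 4 carriers and negative for 6, where 50.2% of all tested genes had a positive one. The median log2 value was -0.0075 over the carriers and 0.00038 over all tested genes. The 95% intervals bounded a difference between these libraries closely: the widest, of SLC43A1, reached 1.31-fold, and the narrowest, of SLC3A2, 1.05-fold. Without GIA library 2 the median over the 10 was 0.028.

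In the heteromeric exchangers a light chain of the SLC7 family is tied to the heavy chain SLC3A2, and neither chain of LAT1 passed the test. SLC7A5 (ENSG00000103257, chr16:87830023-87869507, minus strand) had 447.4, 407.8 and 437.2 FPKM in GIA libraries 1 to 3, against 438.2, 432.9 and 442.7 FPKM in DMSO libraries 1 to 3. GIA library 2 was the lowest of the 6 and GIA library 1 the highest. On the log2 scale the fitted difference was -0.025 (SE 0.037, 95% interval -0.11 to 0.058). Leaving out GIA library 2 gave 0.017. SLC3A2 (ENSG00000168003, chr11:62856102-62888875, plus strand) had 136.7, 132.9 and 136.7 FPKM with GIA, against 133.7, 135.1 and 133.9 with DMSO. Its highest library was only 1.03-fold above its lowest, and the fitted log2 fold change came to 0.011 (SE 0.028, 95% interval -0.052 to 0.074). It was 0.028 without GIA library 2, and leaving out each library in turn gave 0.00080 to 0.028.

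SLC7A6, the light chain of y+LAT2, which exchanges arginine for neutral amino acids and sodium, lies on the same chromosome as SLC7A5 (ENSG00000103064, chr16:68264516-68301823, plus strand). It had 15.5, 13.4 and 14.7 FPKM with GIA, against 14.1, 14.1 and 15.5 with DMSO, with the lowest value again in GIA library 2. The log2 fold change was -0.0050 (SE 0.062). Leaving out GIA library 2 gave 0.054. On the opposite strand SLC7A6OS overlaps its gene model, with a mean of 6.07 FPKM. The libraries are strand-specific per the labels, but no source used here tells if counting used the strand, so reads of the overlap may be shared. Likewise, SLC7A5 has pseudogene copies, of which SLC7A5P2 had a mean of 0.821 FPKM and SLC7A5P1 0.215, small beside the parent gene.

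The light chain outnumbered the heavy chain in mRNA per length. SLC7A5 over SLC3A2 was 3.27, 3.07 and 3.20 in FPKM with GIA, against 3.28, 3.21 and 3.31 with DMSO. The groups overlapped, since the second DMSO ratio lay below the first GIA ratio, and the log2 difference was -0.037 (exact permutation test, two-sided, p = 0.2; the smallest p that 3 against 3 libraries can give is 0.1). Without GIA library 2 it was -0.012 (exact permutation p = 0.4), and without GIA library 1 it was -0.059 (exact permutation p = 0.2). In the latter the remaining GIA ratios lay below all DMSO ratios. With 2 against 3 libraries the smallest possible p is 0.2, so these tests could not pass. Adding the other light chains known to bind SLC3A2 (SLC7A6, SLC7A7, SLC7A8, SLC7A10 and SLC7A11), their sum was 3.30 to 3.53 times SLC3A2 with GIA and 3.46 to 3.55 times with DMSO. SLC7A5 was 92.7% to 93.1% of that sum with GIA and 92.7% to 93.3% with DMSO.

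SLC43A1 encodes LAT3, which passes leucine and other large neutral amino acids without a heavy chain (ENSG00000149150, chr11:57484534-57515780, minus strand). It had 2.75, 3.51 and 3.34 FPKM in the GIA libraries, against 3.15, 2.86 and 2.72 in the DMSO libraries. GIA libraries 2 and 3 were the highest of the 6, while GIA library 1 lay among the DMSO libraries. Its log2 fold change of 0.13 (SE 0.11, 95% interval -0.12 to 0.39) was the farthest from 0 of the 10. Leaving out GIA library 2 gave 0.067 and leaving out GIA library 1 gave 0.23. The gene had 723 to 921 estimated counts with GIA and 630 to 679 with DMSO, the fewest of any carrier.

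The SLC1 family members SLC1A5 and SLC1A4 both exchange small neutral amino acids in a sodium-dependent way; SLC1A5 also takes glutamine. SLC1A5 (ENSG00000105281, chr19:46774883-46788594, minus strand) had 158.7, 137.3 and 150.7 FPKM with GIA, against 149.8, 150.9 and 155.5 with DMSO. The DMSO values lay inside the range of the GIA values. The log2 fold change came to -0.032 (SE 0.052, 95% interval -0.15 to 0.085). Leaving out GIA library 2 gave 0.027. SLC1A4, or ASCT1 (ENSG00000115902, chr2:64988477-65023865, plus strand), had 8.25, 6.37 and 7.44 FPKM with GIA, against 7.24, 7.76 and 8.26 with DMSO. GIA library 2 differed from the median of the other 5 libraries by -17.9%, the largest shortfall among the 10. The fitted log2 fold change, -0.078 (SE 0.091, 95% interval -0.28 to 0.13), became 0.019 without GIA library 2 and -0.17 without GIA library 1.

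These paralogues varied together over the libraries. On log2 CPM, Pearson's r of SLC1A4 and SLC1A5 was 0.97 and Spearman's rho 1 over 6 libraries (exact permutation p = 0.00278 for both, 0.0111 after Benjamini-Hochberg adjustment over the 4 pairs examined). Without GIA libraries 1 and 2, the 2 farthest from the median, r was 0.95 over 4 libraries (exact permutation p = 0.0833, the smallest that 4 libraries can give). Without GIA library 2 alone it was 0.90 (exact permutation p = 0.0167). A group holds too few libraries for a value within it. Among 13720 other tested genes, 53 (0.386%) had a larger r with SLC1A5 than SLC1A4 did. The carrier SLC7A5, of another family, was among them at r = 0.98, so the likeness was not particular to the paralogues. The ratio of SLC1A4 to SLC1A5 in FPKM was 0.0492 ± 0.0028 with GIA and 0.0509 ± 0.0024 with DMSO (SD, n = 3 each; exact permutation p = 0.5). The log2 difference was -0.049. Leaving out GIA library 2 gave -0.0069, GIA library 1 gave -0.089, DMSO library 3 gave -0.019 and DMSO library 1 gave -0.087.

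The sodium-coupled carriers SLC38A1 and SLC38A2 lie side by side on chromosome 12 with 88236 bases between them. SLC38A1, or SNAT1 (ENSG00000111371, chr12:46183063-46269951, minus strand), had 66.5, 58.0 and 64.6 FPKM with GIA, against 62.2, 66.0 and 63.6 with DMSO. SLC38A2, or SNAT2, known to be induced when amino acids run short (ENSG00000134294, chr12:46358188-46372773, minus strand), had 69.9, 74.3 and 67.9 FPKM with GIA, against 67.9, 70.8 and 67.7 with DMSO. In GIA library 2 the neighbours went apart: SLC38A1 differed by -10.2% and SLC38A2 by 9.37% from the median of the other 5 libraries. The log2 fold changes were -0.022 (SE 0.053, 95% interval -0.14 to 0.097) for SLC38A1 and 0.037 (SE 0.037, 95% interval -0.047 to 0.12) for SLC38A2. Without GIA library 2 they were 0.038 and 0.0049.

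The ratio of SLC38A1 to SLC38A2 showed the same library. It was 0.952, 0.780 and 0.951 in FPKM with GIA, against 0.916, 0.932 and 0.940 with DMSO. Apart from GIA library 2, the GIA ratios lay above all DMSO ratios. The log2 difference was -0.062 with all libraries (exact permutation p = 1) and 0.034 without GIA library 2 (exact permutation p = 0.2). The smallest p that 2 against 3 libraries can give is 0.2, so the latter test could not pass. Their correlation was -0.49 over 6 libraries (rho 0.029; exact permutation p = 0.389 and 1, adjusted 0.389 and 1). Without GIA library 2 it was 0.83 over 5 libraries (exact permutation p = 0.117). The sign therefore rested on 1 library.

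**Figure D2:**
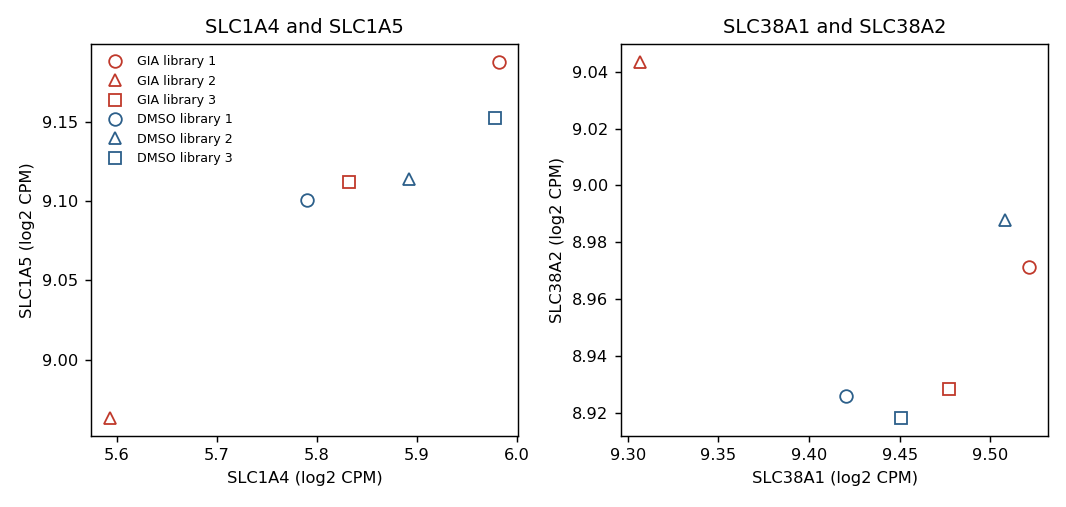
Log2 CPM of SLC1A4 against SLC1A5 (left) and of SLC38A1 against SLC38A2 (right); each symbol is 1 library, GIA in red and DMSO in blue. The SLC1 pair lies along a line (r = 0.97), while in the SLC38 pair GIA library 2 stands alone at low SLC38A1 and high SLC38A2.

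The correlations of the heavy chain with its light chains did not pass the test. The r of SLC7A5 with SLC3A2 was 0.74 (rho 0.54; exact permutation p = 0.108 and 0.297, adjusted 0.211 and 0.396), and that of SLC7A6 with SLC3A2 0.65 (rho 0.83; exact permutation p = 0.158 and 0.0583, adjusted 0.211 and 0.117). Without GIA libraries 1 and 2, the farthest from the median, r was -0.44 and -0.075, and rho -0.6 and 0.4. The sign of r rested on those libraries in both pairs, while rho of SLC7A6 with SLC3A2 stayed positive. The tested genes whose log2 CPM was most like that of SLC7A5 over the 6 libraries were MFSD5, which encodes a molybdate carrier, at r = 0.999, the splicing factor gene SF1 at 0.997 and the antisense RNA DLG1-AS1 at 0.995. Of the other carriers SLC1A5 came closest, at r = 0.98 and rank 18, and SLC3A2 was at rank 1785.

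SLC7A1 takes up the basic amino acids arginine and lysine, and SLC6A9 takes up glycine. SLC7A1, or CAT1 (ENSG00000139514, chr13:29509414-29595688, minus strand), had 25.7, 23.5 and 24.6 FPKM with GIA, against 24.3, 25.3 and 24.7 with DMSO. The log2 fold change was -0.010 (SE 0.042, 95% interval -0.11 to 0.085). Leaving out GIA library 2 gave 0.025. SLC6A9, or GLYT1 (ENSG00000196517, chr1:43991500-44031467, minus strand), had 14.5, 12.8 and 14.7 FPKM with GIA, against 13.8, 13.3 and 14.2 with DMSO. GIA libraries 1 and 3 were above every DMSO library and GIA library 2 below. The fit gave 0.027 (log2; SE 0.059, 95% interval -0.11 to 0.16), and 0.090 (SE 0.040) without GIA library 2.

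**Figure D3:**
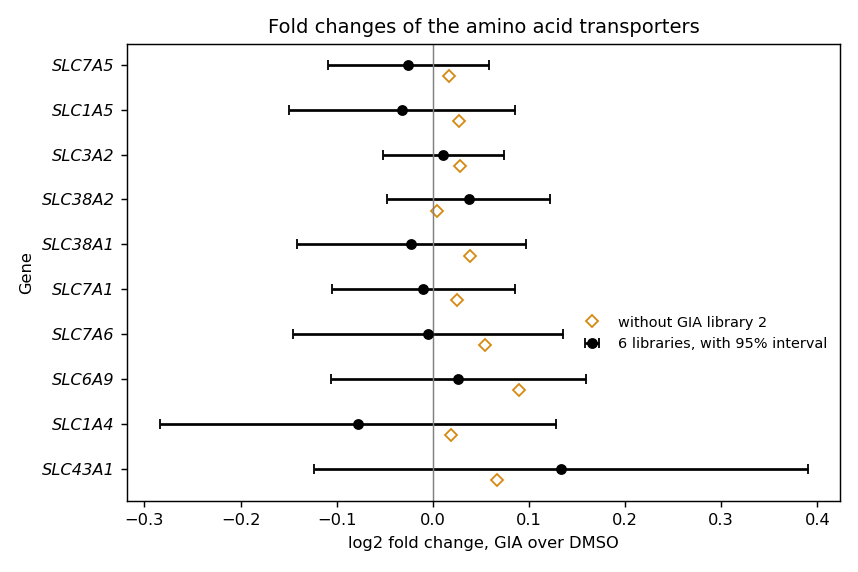
Log2 fold change of each carrier, GIA over DMSO, on the x axis; black points are the fit on 6 libraries with 95% intervals and open diamonds the fit without GIA library 2. Each interval includes 0, and SLC7A5, SLC1A5, SLC38A1, SLC7A1, SLC7A6 and SLC1A4 change sign without that library.

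GIA library 2 was the extreme library for every carrier. By log2 CPM it was the lowest of 6 libraries for 8 carriers and the highest for SLC38A2 and SLC43A1, where 26.6% and 27.0% of all tested genes had it lowest and highest. For 8 of 10 carriers, all but SLC7A1 and SLC43A1, it lay farther from the median of the other 5 libraries than their whole range, against 25% of tested genes; no other library did so for any carrier. Its FPKM differed from the median of the other 5 by -1.61% for SLC3A2, -4.67% for SLC7A1, -6.95% for SLC7A5, -9.01% for SLC7A6, -9.04% for SLC1A5 and -9.46% for SLC6A9, and by 22.7% for SLC43A1. The same library was the highest of 6 for 4 of 5 tested fibroblast markers, with LUM making up 197.2 of the list's 222.4 FPKM, and the lowest for the other, FAP, at 0.661. Of 3 tested keratins it was the lowest for KRT8 and KRT18, while its KRT19, at 27.7 FPKM, lay above 3 of the other 5 libraries. The part of these genes in the carriers' values was not tested.

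**Figure D4:**
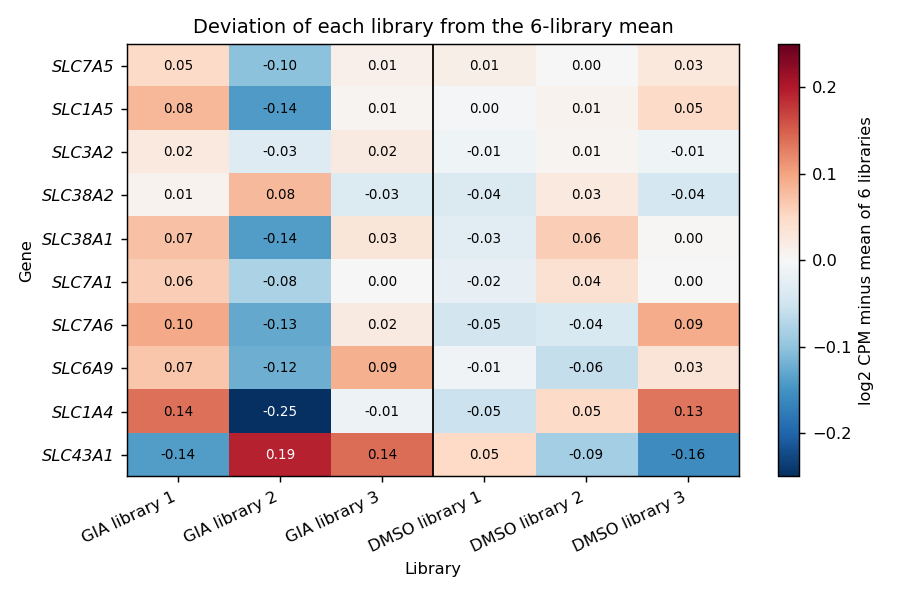
Log2 CPM of each carrier in each library minus the mean of 6 libraries; blue is below and red above the mean, GIA libraries on the left and DMSO libraries on the right of the line. The GIA library 2 column is blue for 8 carriers, down to -0.25 for SLC1A4, and red for SLC38A2 and SLC43A1.

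The DNA around the starts of these genes was searched for the motifs through which ATF4 and MYC are known to act on carriers of this kind. RefSeq windows (GRCh38.p14) of 300 bases, from 250 before to 50 after a transcription start, were found for all 10 genes, 17 windows in all, and for 8 genes a RefSeq start lay within 10 bases of the deposited gene start. The core of the composite site bound by ATF4 with C/EBP factors, TGATGNAA on either strand, was in 5 of these 17 windows. It was in 3.62% of all 35116 windows. The 5 windows with a match belong to 5 carriers. The lines show 30 bases around each match, 5′ to 3′ on the strand of the gene, with the match in capitals; the last 2 hold it on the opposite strand.
SLC7A1: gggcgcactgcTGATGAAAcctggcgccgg
SLC38A1: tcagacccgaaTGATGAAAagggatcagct
SLC1A5: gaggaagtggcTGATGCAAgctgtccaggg
SLC1A4: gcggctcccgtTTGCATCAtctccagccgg
SLC3A2: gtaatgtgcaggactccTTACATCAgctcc

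The SLC7A1 match (chr13:29595663-29595692, minus strand) began 8 bases into the transcript from the main start of the gene. The others were at further RefSeq starts inside the gene: SLC38A1 at chr12:46266502-46266531 (minus strand), SLC1A5 at chr19:46784893-46784922 (minus), SLC1A4 at chr2:64989381-64989410 (plus) and SLC3A2 at chr11:62881719-62881748 (plus).  ATF4 itself had 152.2, 158.8 and 155.6 FPKM with GIA, against 152.9, 152.0 and 151.7 with DMSO, with GIA library 2 the highest (log2 fold change 0.029, SE 0.028).

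The palindromic E-box CACGTG, a motif of MYC with MAX and of related factors, was in 3 of the 17 windows, in 3 carriers. It was in 7.26% of all windows. It does not overlap the composite site in any of these windows, and its capitals mark the match in the same way.
SLC7A5: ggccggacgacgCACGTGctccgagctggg
SLC43A1: cagcgggcgagtCACGTGcgcgtgaaactc
SLC1A5: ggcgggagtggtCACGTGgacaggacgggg

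In SLC7A5 (chr16:87869620-87869649, minus strand) the match began at position -130 from the start of the gene. In SLC43A1 (chr11:57515797-57515826, minus strand) it began at position -112 from a start, and in SLC1A5 (chr19:46787326-46787355, minus strand) at -50 from a start inside the gene. The 3 genes did not move alike over the libraries: r with SLC7A5 was 0.98 for SLC1A5 and -0.72 for SLC43A1. A match describes these letters only, and binding was not measured.

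Other plasma membrane carriers of amino acids were mostly low or absent. Of 29 listed, 21 were in the table and 8 passed the expression filter; 0 were higher, 0 lower and 8 did not pass the test, with a median log2 fold change of -0.033. SLC38A5, another glutamine carrier, was the most abundant at 44.7 ± 1.96 FPKM with GIA and 45.7 ± 1.76 with DMSO (SD, n = 3 each), followed by the glutamate carrier SLC1A3 at 27.69 ± 3.08 with GIA and 28.96 ± 0.340 with DMSO. SLC6A6, which carries taurine, had 11.3, 12.9 and 11.1 FPKM with GIA, against 10.8, 10.7 and 10.1 with DMSO. Its groups did not overlap and its log2 fold change was 0.15 (SE 0.058, adjusted p = 0.875 by edgeR). SLC43A2, which encodes LAT4, had 2.34, 2.44 and 2.41 FPKM with GIA, against 2.62, 2.49 and 2.64 with DMSO (log2 fold change -0.11, SE 0.057). Groups did not overlap for these 2 of 8 genes, beside 11.2% of all tested genes.

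Carriers of inner membranes likewise did not pass. Of 9 tested lysosomal and other intracellular carriers 0 passed, with 2 positive and 7 negative fold changes (50.2% of all tested genes were positive) and a median of -0.061. Groups did not overlap for 3 of 9, beside 11.2% of all tested genes. SLC38A7, a lysosomal glutamine carrier, had 4.97, 4.54 and 4.79 FPKM with GIA, against 5.21, 5.28 and 5.18 with DMSO (log2 fold change -0.13, SE 0.056). SLC15A4, which carries histidine and peptides, had 3.89, 4.04 and 4.08 FPKM with GIA, against 4.26, 4.47 and 4.33 with DMSO (log2 fold change -0.12, SE 0.061). The more abundant SLC38A10 and SLC66A1 had log2 fold changes of 0.033 (SE 0.037) and -0.077 (SE 0.12). Of 10 tested mitochondrial carriers 0 passed, with 7 negative and a median of -0.033. SFXN3, of the family that brings serine into mitochondria, had 13.7, 15.7 and 15.2 FPKM with GIA, against 13.6, 13.2 and 13.3 with DMSO (log2 fold change 0.15, SE 0.051). It was the 1 of 10 whose groups did not overlap, beside 11.2% of all tested genes. SLC25A29, a carrier of basic amino acids, had 0.27 (SE 0.19), the aspartate and glutamate carrier SLC25A13 -0.053 (SE 0.045) and SFXN1 -0.013 (SE 0.037). In GIA library 2 SLC25A29 was highest, with 1.76, 2.99 and 2.06 FPKM with GIA, against 2.16, 1.56 and 1.89 with DMSO.

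Enzymes that use what the carriers bring in gave the same picture. Of 15 tested genes of glutamine, glutamate, serine and asparagine metabolism 0 passed, with 10 negative and a median log2 fold change of -0.032. GPT2, an alanine transaminase, had -0.096 (SE 0.048). PSAT1 of serine synthesis had 244.9, 215.4 and 237.1 FPKM with GIA, against 232.7, 242.1 and 238.6 with DMSO, and ASNS, the asparagine synthetase, had 77.8, 69.4 and 75.4 FPKM with GIA, against 75.0, 76.2 and 76.1 with DMSO, both lowest in GIA library 2. Of 12 tested genes of the list for breakdown of branched-chain and other amino acids 0 passed, with 9 positive and a median of 0.029. Groups did not overlap for 1 of 12, beside 11.2% of all tested genes. This was DLD, a subunit shared by the mitochondrial keto acid dehydrogenases, with a log2 fold change of -0.086 (SE 0.033). The urea cycle genes ASL and ASS1 had 0.12 (SE 0.078) and 0.052 (SE 0.043), and ODC1, which starts polyamine synthesis, -0.11 (SE 0.076). In GIA library 2 ODC1 was lowest, with 108.4, 85.4 and 100.4 FPKM with GIA, against 103.8, 107.4 and 105.7 with DMSO.

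Genes that control the carriers, and those that sense their cargo, did not pass either. Of 18 tested regulators 0 passed, with 10 positive and a median log2 fold change of 0.0098. For 1 of 18, the stress gene NUPR1, groups did not overlap, beside 11.2% of all tested genes. Its log2 fold change was -0.083 (SE 0.038). CEBPB, a partner of ATF4, had 0.010 (SE 0.037) and NEDD4, a ubiquitin ligase, 0.13 (SE 0.068). Of 25 tested genes of amino acid sensing by mTORC1 0 passed, with 9 positive and 16 negative and a median of -0.034. Groups did not overlap for 3 of 25, close to the 11.2% of all tested genes. LAMTOR1, which anchors the Rag complex to lysosomes, had 29.15, 29.98 and 29.15 FPKM with GIA, against 30.5, 31.0 and 31.8 with DMSO (log2 fold change -0.083, SE 0.035). SEH1L of the GATOR2 complex had 9.038, 8.004 and 9.023 FPKM with GIA, against 9.53, 9.42 and 9.40 with DMSO (log2 fold change -0.12, SE 0.053). RHEB, which switches mTORC1 on, had 0.00036 (SE 0.038) and the small GTPase RRAGA -0.039 (SE 0.054). Leaving out each library in turn, the median changed sign for the plasma membrane list (-0.054 to 0.021) and the regulators (-0.010 to 0.018), and kept its sign for the other 5 of these lists. The sizes moved: it ranged from -0.099 to -0.027 for the lysosomal list, from -0.054 to -0.016 for the mitochondrial carriers, from -0.039 to -0.019 for the glutamine enzymes, from 0.0048 to 0.055 for the breakdown list and from -0.034 to -0.015 for mTORC1 sensing. Without GIA library 2 the lysosomal median was -0.027, the mitochondrial -0.016, that of the glutamine enzymes -0.019 and that of the breakdown list 0.0056.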

How the data were processed

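RNA was measured in 6 libraries, 3 per group. The table deposited by the authors holds, per the file headers, an estimated count and an FPKM value for each of 30676 genes and each library. The submitters' processing notes name FastQC 0.10.1, cutadapt, HISAT2 2.2.1, StringTie 2.1.6, DESeq2 1.22.2, GRCh38 and hg38, with no role for each. No source used here tells how the counts were made. The value 4 occurred 6798 times, more often than 3 (4183 times) or 5 (2499 times), so the deposited counts were treated as estimated counts in which 1 fragment may be worth about 4; rounding changed 0 values. FPKM as deposited by the authors was used for levels and ratios.

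Genes with a mean of at least 0.5 FPKM (13721) were tested with the quasi-likelihood test of edgeR 4.0.16 (R 4.3.3), two-sided, with TMM scaling, no covariate and Benjamini-Hochberg adjustment at 0.05 over all of them. SEs came from the F statistic. Log2 CPM had a prior count of 2. Exact permutation tests used scipy 1.17.1. Alternatives used DESeq2 1.42.0, limma 3.58.1 on log2 (FPKM + pseudocount), other scalings, filters, a replicate block and leaving out libraries.

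The carriers and the gene lists were chosen with earlier results of these data known. Beside the 10 carriers, the text names the 2 genes of smallest p and the 2 of highest FPKM in each list (of cell type lists, the 2 highest), and the 3 genes most like SLC7A5 (1 gene that this rule names is not reported here); EPCAM, CDH1, VIL1, LGR5, KRT19, PTPRC, FAP and the marker genes said to be so were chosen after their values were seen. Listed genes that are not in the table were not analysed here. Precision is limited by 3 libraries a group. No chi-square of counts divided by 4 per degree of freedom fell below 2.67 between libraries, so none was a copy.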

Additional observations from a re-analysis of the deposited data

How the results depend on the processing

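No carrier was called in any of 16 other fits; the smallest adjusted p of a carrier in any of them was 0.507. Over all tested genes the count of calls was 0 in each other fit that kept all libraries and had no block, 0 to 5 when a library was left out, and 3 with the library number as a replicate block; the block called 0 carriers, with a smallest adjusted p of 0.947. The numbers are not known to pair the libraries: deviations of same-numbered libraries correlated at 0.0519, 0.0334 and 0.0966, and all but DMSO library 2 correlated best with their own number. Of 159 carrier values in other fits 147 kept their sign and 12 changed it, with no call at stake. SLC7A6 had 0.0035 when only genes with a mean of at least 5 FPKM were tested, a filter that SLC43A1 did not pass. Leaving out a library gave -0.056 to 0.017 for SLC7A5, -0.083 to 0.027 for SLC1A5, -0.17 to 0.019 for SLC1A4, -0.065 to 0.038 for SLC38A1, -0.044 to 0.025 for SLC7A1, -0.055 to 0.054 for SLC7A6 and -0.013 to 0.090 for SLC6A9. SLC3A2, SLC38A2 and SLC43A1 kept their sign. The ratio of SLC38A1 to SLC38A2 moved between -0.11 and 0.034 (log2). Without the 2 farthest libraries r was -0.44 for SLC7A5 with SLC3A2, -0.075 for SLC7A6 with SLC3A2, 0.95 for SLC1A4 with SLC1A5 (no longer past the threshold, since 4 libraries cannot pass it) and 0.79 for SLC38A1 with SLC38A2. The causes of these shifts were not tested, beyond the fewer libraries. The choice to leave out GIA library 2 from correlations, and each library from list medians, was made after seeing the data.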
